A study of Saccharomyces cerevisiae and Schizosaccharomyces pombe with 10 samples.

Results

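SNR40 is a small nucleolar RNA (snoRNA) gene of budding yeast, Saccharomyces cerevisiae, on the plus strand of chromosome XIV at 89210 to 89306, a span of 97 nt. Its reads were taken as all plus-strand alignments that touched the gene or the 300 nt on either side of it. There were 8731 of these among 101128 alignments, and 8724 overlapped the gene itself. The gene was chosen by its read count and by the spread of its 3' ends in these same reads, so levels and end positions are given as descriptions with no test. It had been described as abundant, with mixed 3' ends. In the pool it held 8.63% of all alignments, and 57.5% of its reads ended at a single base, yet 94.96% ended within 2 nt of that base, so the mixture was one of closely spaced ends.

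The reads came from a fraction taken as nascent RNA, the RNA still attached to transcribing polymerase on chromatin. It was prepared from strain BY4741 (MATa leu2D0 met15D0 ura3D0) in exponential growth on rich glucose medium at 30 °C, with no further treatment named. A DNA adaptor with random bases in it was joined to the 3' ends of the RNA, which was copied into cDNA, amplified and read as long single molecules on a Pacific Biosciences instrument. The labels name 2 replicates, but their alignments stand in 1 pool and the read names do not tell them apart, so no spread between replicates can be given. The read names do separate 5 sequencing movies, told apart by the first part of each name. There were 4 earlier ones, numbered 1 to 4, and a later one, numbered 5. They held from 16311 to 35242 alignments each. Movies are not replicates. Shares are given with Wilson intervals and levels with exact Poisson ones, all at 95%. Both kinds cover counting error only, since copies made by PCR were not removed.

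Box C/D snoRNAs such as that of SNR40 pair with ribosomal RNA and direct methylation of a ribose at the paired base. Their ends lie close together in the folded molecule, where a short terminal stem and the C and D boxes bind the proteins of the particle. In budding yeast most are transcribed by RNA polymerase II as precursors. In many of these an upstream leader is cut by the RNase III enzyme Rnt1 or trimmed by 5' exonucleases, and a downstream trailer, left by termination through Nrd1, Nab3 and Sen1, is trimmed back by the nuclear exosome. The read of a single molecule shows both of its ends at once, and with them which of these parts the molecule still carried. Reads of finished snoRNA in the preparation were not told apart from nascent ones, and a 5' end is the place where the cDNA ended. In 90.4% of SNR40 reads both ends lay within 2 nt of the annotated ones. The levels and ends below therefore need not be those of nascent RNA.

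SNR40 gave 86.3 reads per 1000 alignments in the pool (interval 84.5 to 88.1). The earlier movies 1 to 4 held 98.9, 99.1, 106.6 and 122.6 per 1000, and the later movie held 47.7 (45.5 to 50.1). The later movie stood apart on the low side, and its reads of all genes were longer, with a median length of 185 nt against 101 nt in the earlier movies. The median length of SNR40 reads was 97 nt in each of the 5 movies. The part of read length in the lower level was not tested. Per nucleotide of gene, SNR40 had 89.9 reads, the highest of 75 snoRNA genes with at least 50 reads, followed by SNR190 with 61.8. By number of reads, not divided by gene length, SNR40 ranked 2 of the 75, with 8724 against 11742 for SNR190.

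Few other reads lay around the SNR40 locus. Its upstream neighbour PCL1, a cyclin gene (87897 to 88736), lies 473 nt away and had 1 read, while CAF40 (90303 to 91424), a gene of the Ccr4-Not complex that lies 996 nt downstream, had 0. No read lay on the opposite strand within the window. None fell between PCL1 and the window or between the window and CAF40, on either strand. Counts at other protein-coding genes were not set beside these, so they do not mark the locus as unusually quiet. No SNR40 alignment held a gap.

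Ends are given below relative to the annotation, with 0 for the annotated first or last base, negative positions upstream and positive ones downstream. Whether the random bases of the adaptor were removed before alignment is not given in the sources used here. Any left on that matched the genome by chance would place a 3' end too far downstream, which was not tested and limits what ends at +1 and +2 mean. Both commonest ends coincided with the annotation. Of the 8724 reads, 6217 (71.3%) began at 0, 1242 (14.2%) at -1 and 728 (8.34%) at +1, and the start with the next highest count was +2 with 89 reads. On the 3' side 5013 reads (57.5%, 56.4 to 58.5) ended at 0, 1508 (17.3%) at +1, 865 (9.92%) at +2, 674 (7.73%) at -1 and 224 (2.57%) at -2. Reads were thus more widely spread at the 3' end than at the 5' end and leaned downstream there, with a steep drop between +2 and +3, where 67 reads (0.768%) ended.

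The 3' ends kept their order from movie to movie, with some differences in share. Ends at 0 held 54.2%, 57.7%, 58.5%, 60.99% and 55.1% in movies 1 to 5. Ends at +1 held 17.6%, 17.3%, 16.0%, 17.9% and 17.5%. Ends at +2 held 11.8%, 10.02%, 10.01%, 8.45% and 9.69%. The order of these 3 positions was the same in all 5 movies. At +1 every movie's interval overlapped every other. At 0 movie 4 (58.9 to 63.1) overlapped neither movie 1 (51.8 to 56.6) nor movie 5 (52.7 to 57.4). At +2 movies 1 and 4 did not overlap (10.3 to 13.4 against 7.32 to 9.73).

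At the 5' end the later movie stood apart. Starts at -1 held 16.3%, 15.1%, 17.3% and 14.3% in movies 1 to 4 and 8.20% (6.99 to 9.61) in movie 5. Starts at +1 held 10.7%, 7.17%, 6.12% and 5.81% in the earlier movies and 12.5% (11.05 to 14.2) in the later one. The later movie was therefore lower at -1 than each earlier movie beyond counting error, while at +1 its interval overlapped that of movie 1 (9.33 to 12.3). Starts at 0 ranged from 65.8% in movie 1 to 75.7% in movie 5.

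**Figure D1:**
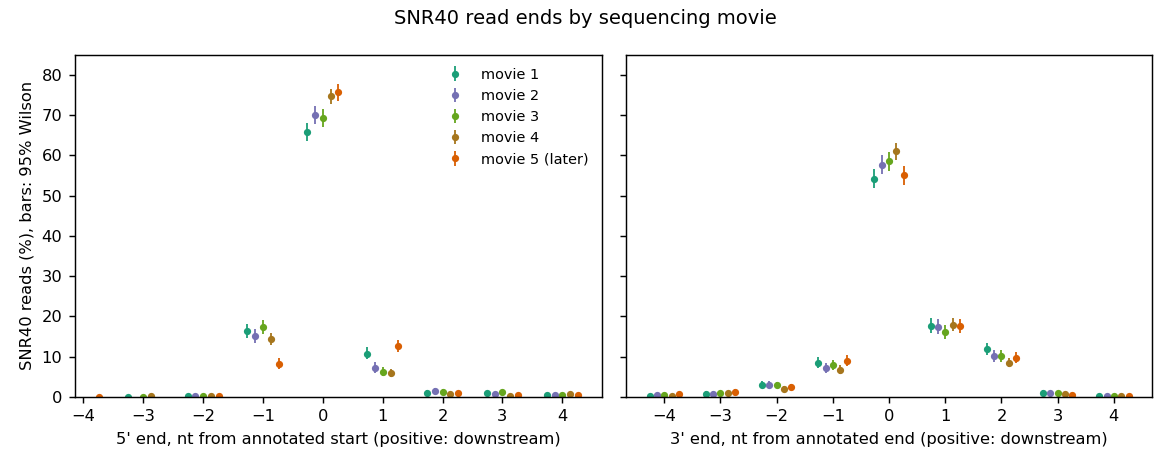
Share of SNR40 reads (%) at each 5' end (left) and 3' end (right), by distance in nt from the annotated end, 1 point per movie with its 95% Wilson interval. The 3' ends have the same order at 0, +1 and +2 in all movies. At 0 they hold 54.2% to 60.99%, and movie 4 overlaps neither movie 1 nor movie 5. At the 5' end the later movie has fewer starts at -1 (8.20%).

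Paired in single reads, these ends made a small set of abundant molecules. The exact annotated molecule of 97 nt was the commonest with 3568 reads (40.9%, 39.9 to 41.9), and its share was 35.2%, 40.1%, 40.3%, 46.2% and 41.4% in movies 1 to 5. A molecule of 98 nt with a start at 0 and an end at +1 followed with 1170 reads (13.4%). Next came the 98 nt molecule from -1 to 0 with 629 reads (7.21%), the 96 nt molecule from +1 to 0 with 512 (5.87%), the 99 nt molecule from 0 to +2 with 506 (5.80%) and the 96 nt molecule from 0 to -1 with 501 (5.74%). The 100 nt molecule from -1 to +2, longer by 1 base on one side and by 2 on the other, had 300 reads (3.44%). Altogether 7886 reads (90.4%) had both ends within 2 nt of the annotation.

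The 3' ends were not shared out alike among the 5' ends. Of the 1242 reads that began at -1, 300 ended at +2 (24.2%, 21.9 to 26.6), against 506 of 6217 that began at 0 (8.14%, 7.48 to 8.84) and 23 of 728 that began at +1 (3.16%, 2.11 to 4.70). One more base at the 5' end thus went with more ends 2 bases past the annotated 3' end, and 1 base less with fewer. The 3 intervals did not overlap. Later starts did not continue this order. Of 89 reads from +2, 11 ended at +2 (12.4%, 7.04 to 20.8), and of 56 from +3, 5 did (8.93%, 3.87 to 19.3). From -2, 4 of 14 did. If each read's ends were combined in proportion to their totals, 123 reads from -1 to +2 would be counted. The observed number was 2.44 times that.

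Ends at 0 ran the other way. They were found in 50.6% of reads that began at -1, in 57.4% of those from 0 and in 70.3% (66.9 to 73.5) of those from +1. After +2 and +3, with fewer reads, they were 60.7% (50.3 to 70.2) and 51.8% (39.0 to 64.3). Ends at +1 were most frequent after a start at 0, at 18.8%, and stood at 13.1% after -1 and 12.9% after +1. Seen from the 3' side, 34.7% (31.6 to 37.9) of reads ending at +2 began at -1, against 12.5% (11.7 to 13.5) of those ending at 0.

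**Figure D2:**
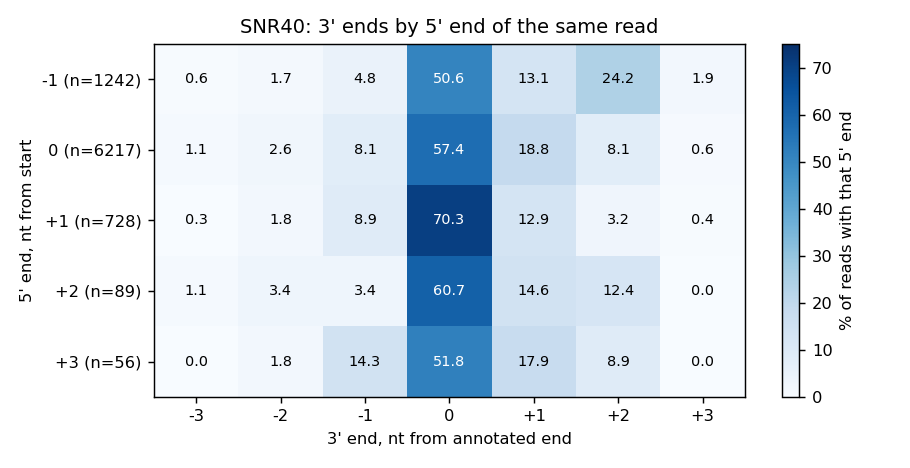
Percent of SNR40 reads with a given 5' end (rows, nt from the annotated start, with the number of reads) that ended at each 3' position (columns, nt from the annotated end), all movies together. The cell from -1 to +2 holds 24.2% of its row, against 8.1% and 3.2% in the rows of 0 and +1.

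The excess of +2 ends after a start at -1 was present in every movie. After -1 the share was 23.3%, 19.7%, 23.8%, 26.0% and 30.4% in movies 1 to 5. After 0 it was 10.3%, 9.09%, 7.51%, 6.15% and 8.48%. The difference of 16.0 points in the pool ranged from 10.6 to 21.95 points over the movies and had the same sign in 5 of 5. The drop of 4.98 points from 0 to +1 also had the same sign in 5 of 5, and in movie 4 none of the 119 reads from +1 ended at +2. The comparison was singled out after the values were seen. Reads of 1 pool share their library and PCR copies, so it was given no p-value.

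**Figure D3:**
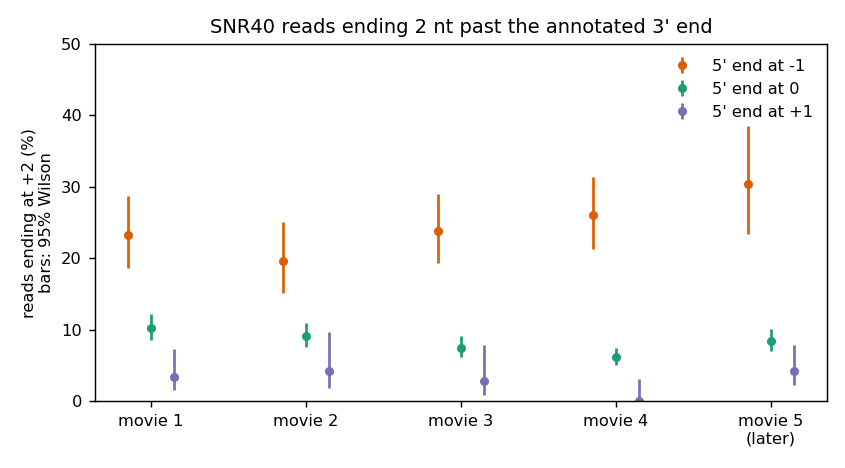
Percent of SNR40 reads that ended at +2, by 5' end (colours) and movie, with 95% Wilson intervals. Reads starting at -1 lie between 19.7% and 30.4%, above reads starting at 0 (6.15% to 10.3%) in each movie.

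A downstream trailer was rare and came in a narrow size range. In all, 58 reads (0.665%, 0.515 to 0.858) ended at least 10 nt past the annotated end, and 51 of them ended at +45 to +64, with a median of +61. The commonest end in this group was +63 (89369) with 15 reads, then +64 with 8 and +60 with 7, and beyond +64 there was a single read, at +203. Between +23 and +44 no read ended, for which 3 counts, the upper limit used here for a count of 0, would be 5.17% of the extension reads, and 6 ended at +10 to +22. The trailer thus had a sharp far edge at +64, with a tail of ends on its near side.

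Most reads with a trailer had no leader of at least 10 nt. Of the 58, 51 began within 2 nt of the annotated start, with 34 at 0, 14 at -1 and 3 at +1. A further 3 began inside the gene, and 4 carried at least 10 nt of leader. Starts at -1 made up 24.1% (14.96 to 36.5) of the extension reads and 14.2% of all reads.

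Extension reads were unevenly spread over the movies. There were 6, 5, 6 and 7 in movies 1 to 4, which is 0.341% of the reads of the earlier movies (0.229 to 0.507), and 34 in movie 5, which is 2.02% (1.45 to 2.81). Those at +45 to +64 numbered 6, 5, 5, 4 and 31 in movies 1 to 5. Movie 5, whose reads were longer in general, thus supplied most of the trailer reads, and the share without it was 0.341% in place of 0.665%. The part of read length in this was not tested.

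Reads with upstream leader were rarer still. There were 15 with a start at least 10 nt upstream, and 11 of these began at the same base, -138 (89072). The other starts were -122, -39, -16 and -11, with 1 read each. Movie 5 gave 9 of the 15, movie 1 gave 4 and movie 4 gave 2. Of the 15, 8 reached the gene (0.0917% of its reads), and without movie 5 only 1 of these remained (0.0142%).

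The 11 molecules from -138 carried no mature 3' end. Of these, 6 ended before the gene, at 89137, 89139, 89146, 89190, 89193 and 89204, with lengths from 66 to 133 nt. A further 2 ended in the first bases of the gene, at 89210 and 89216. The remaining 3 ran past its end, to +13, +47 and +203, the last a molecule of 438 nt that held leader, snoRNA and trailer. None of the 11 ended within 2 nt of the annotated end, though the upper limit of 3 counts for 11 reads is 27.3%.

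Of all 15 leader reads, 6 reached the 3' end of the gene. Of these 6, 4 also had a trailer, from -138 to +13, +47 and +203 and from -11 to +60. The other 2, both of movie 5, began at -39 and -16 and ended at -1, within 2 nt of the annotated end. Set side by side, 54 reads had a trailer of at least 10 nt with no such leader. Another 2 had such a leader with the 3' end within 2 nt of the annotation, and 4 had both. All 6 with a leader came from movie 5, and without it the counts were 24, 0 and 0. These are counts of reads, from which PCR copies were not removed. The 58 extension reads held 32 distinct alignments, while the 15 leader reads held 15. Reads with the same ends may be copies or separate molecules, which were not told apart. How long each form lasts was not measured.

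**Figure D4:**
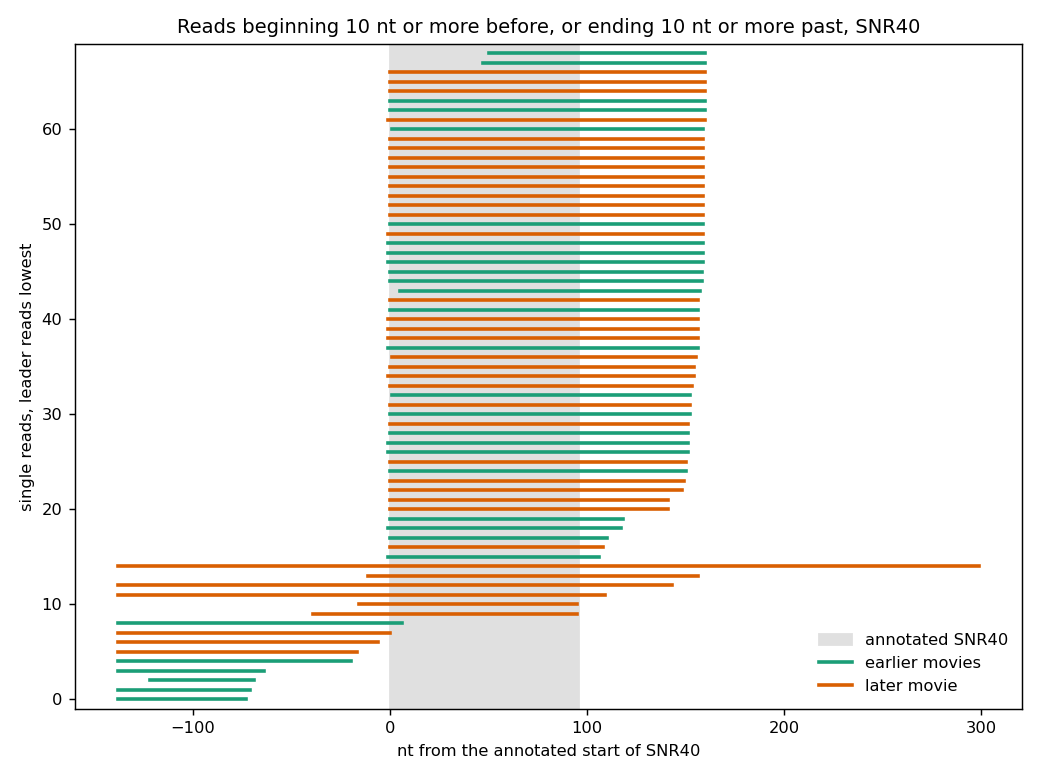
Each line is 1 read that began at least 10 nt before or ended at least 10 nt past SNR40, drawn to scale in nt from the annotated start (grey: annotated gene; colour: earlier or later movies). The 15 leader reads lie lowest, 11 of them with a start at -138, and 51 of the 58 extension reads end at +45 to +64.

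Within the gene, 418 reads (4.79%) began more than 2 nt downstream of the annotated start. Of these, 92.8% (89.9 to 94.9) still ended within 2 nt of the annotated 3' end. That was close to the 95.1% of reads that began within 2 nt of the annotated start. Starts at +3 to +9 made up 154 of the 418. Of the rest, the commonest single starts were +10 with 39 reads, +44 with 37 and +50 with 23.

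Those 3 positions were seen in the earlier movies alone. Starts at +10 had 8, 14, 6, 11 and 0 reads in movies 1 to 5, starts at +44 had 5, 9, 11, 12 and 0, and starts at +50 had 5, 5, 5, 8 and 0. Together they held 99 of 7042 reads of the earlier movies (1.41%, 1.16 to 1.71) and 0 of 1682 of the later one, where the upper limit of 3 counts is 0.178%. Across all internal starts the share was 5.44% in the earlier movies and 2.08% in the later one. The 3 positions were picked for their counts after these were seen.

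Ends inside the gene were fewer, with 291 reads (3.34%) ending more than 2 nt before the annotated end. Their share was 3.62%, 3.46%, 3.43%, 2.59% and 3.75% in movies 1 to 5, so unlike internal starts they were not rarer in the later movie. Most were short losses, since 205 of the 291 (70.4%) ended at -3 to -10. Among these, -3 had 80 reads, -4 had 35 and -9 had 21.

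Further inside, the position with the most reads was -56, the 41st base of the gene, with 13 reads, of which 12 began exactly at 0. The next were -11 with 9 reads, then -14 and -28 with 8 each. Of the 8 reads at -28, 6 began at 0. Of all reads ending inside, 90.4% began within 2 nt of the annotated start. Only 26 reads were shortened by more than 2 nt on both sides.

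A few reads aligned in more than 1 place. There were 27 read names with more than 1 alignment, 25 of them from movie 5, and 2 held SNR40 in both alignments. The other 25 alignments all overlapped another snoRNA gene, with SNR190 in 4 (16.0%, 6.40 to 34.7). SNR190 was the most read snoRNA gene of the pool, with 11742 of the 101128 alignments. The share of all alignments that lay on snoRNA genes was not set beside the 25, so no preference is read from them. Of the extension reads 1 was of this kind and of the leader reads 0. Without them ends at 0, +1 and +2 held 57.5%, 17.3% and 9.90%.

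SNR40 was set beside 20 other box C/D snoRNAs that are transcribed on their own rather than from introns or clusters, all of which had at least 50 reads. Its share at the commonest 3' end was the lowest of the 21, at 57.5%. SNR13 followed with 64.4% (59.96 to 68.6), then SNR60 with 68.9% (66.8 to 71.0), and the highest was SNR87 with 88.9%. The median of the others was 85.6%. In the earlier movies SNR40 was again lowest, with 58.0% and SNR60 next at 67.4%. In the later movie, where 17 genes had at least 50 reads, SNR13 was lower with 46.7% and SNR40 had 55.1%. SNR40 was chosen for this property, so its place in the order is a description.

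The bases that made up the difference were those just downstream. SNR40 had 9.92% of reads at 2 nt past the commonest end, where the others had a median of 0.668% and SNR45, the next, had 3.81%. At 1 nt past it SNR40 had 17.3% against a median of 3.35%, with SNR13 higher at 21.1%. At 1 nt before it the value was 7.73% against a median of 4.56%, with SNR45 at 7.99%.

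At the 5' end SNR40 was less unusual. Its 71.3% at the commonest start ranked seventh of 21, between SNR60 with 72.5% and SNR47 with 68.4%, and the median of the others was 56.0%. Extension reads, at 0.665%, also ranked seventh, with SNR13 highest at 4.05% (2.61 to 6.24) and a median of 0.216%. In this comparison leader and extension reads were counted from each gene's own commonest start and end, not from the annotation. Leader reads, at 0.0917%, ranked sixteenth. SNR4 had 7.73% by this count, but its commonest start lay at +12, so these reads need not begin upstream of its annotated start. These pooled ranks mix movies in proportions that differ by gene, since the later movie gave 19.3% of the reads of SNR40, 19.6% of SNR13 and 61.9% of SNR4. By extension reads SNR40 ranked 6 of 21 in the earlier movies and 3 of 17 in the later one, where SNR13 had 15.2%. By leader reads it ranked 14 of 21 and 13 of 17, places that rest on 1 and 7 leader reads of SNR40.

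The pairing of ends was also set beside these genes. For each, the 3' ends of reads from the commonest start were compared with those from the next commonest start within 2 nt, and the share of reads that would have to move to make them equal was taken. That share was 19.0% in SNR40. It was between 2.65% in SNR48 and 11.02% in SNR66 in the 10 other genes with at least 50 reads at the second start, with a median of 6.32%. Sampling noise raises this measure where reads are few, and all 10 had fewer reads than SNR40. The measure also has more room to be large where 3' ends are more spread, the property SNR40 was chosen for. The place of SNR40 here is therefore a description and not separate from that choice.

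**Figure D5:**
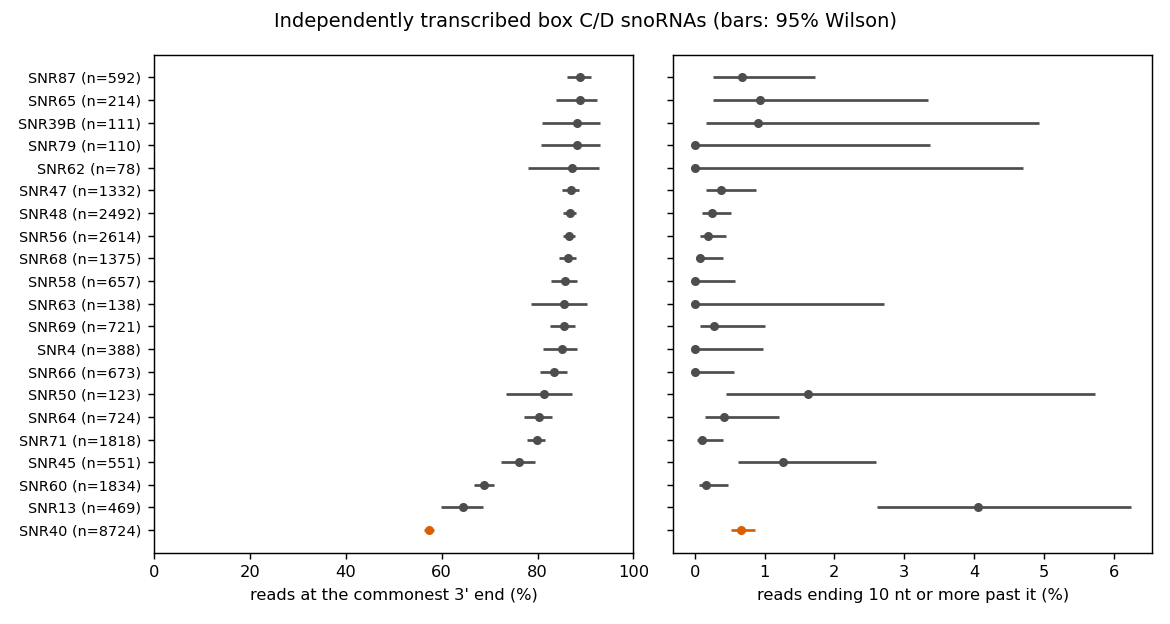
Percent of reads at the commonest 3' end (left) and ending at least 10 nt past it (right) in SNR40 (orange) and 20 other independently transcribed box C/D snoRNAs, with read numbers and 95% Wilson intervals. SNR40 has the lowest share at one 3' end (57.5%), and SNR13 the highest share of extension reads (4.05%).

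Among all 75 snoRNA genes with at least 50 reads, SNR78 (39.1%) and SNR128 (51.1%), both from clustered genes, had a lower share at the commonest 3' end than SNR40, and the median of the other 74 was 85.4%. At 2 nt past that end SNR17B, a U3 gene, was higher with 10.96%. The 3' profiles most like that of SNR40, by the share of reads in common over 10 nt on either side of the commonest end, were those of SNR60 (85.4%), SNR18 (84.9%) and SNR13 (84.1%). SNR18 ended at its commonest base in 58.5% of 2544 reads, and its remainder lay mainly at 1 nt past it (28.9%), with 1.26% at 2 nt past it. SNR60 had 3.27% and SNR13 1.07% there, so none of the 3 came near the 9.92% of SNR40.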

How the data were processed

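The deposited file for S. cerevisiae nascent RNA holds genome alignments of consensus reads, 1 line each, with start, end, strand and aligned blocks. The deposited score was 40 throughout and served for nothing. Build sacCer3 and cutadapt 1.8 are named in the submitters' processing notes. The aligner and its settings are not given in the sources used here. Gene coordinates came from the RefSeq R64 table; the commonest 3' end was the annotated base for 55 of 75 snoRNA genes with at least 50 reads. No budding yeast sequence was used here. Each alignment counted as 1 read, assigned to the same-strand snoRNA gene of largest overlap. Ends were counted with Python 3.11.15, numpy 2.4.6 and scipy 1.17.1 (figures, matplotlib 3.10.9), and the counting was tested on simulated reads. The member and gene lists were chosen with earlier results of these data known. Named are SNR40, its neighbours within 1000 nt, listed box C/D genes at the extremes or next to SNR40, the 3 most alike profiles, and genes met as joined reads or at the extremes of all snoRNAs, which were chosen after their values were seen. The other samples of the series were not analysed here.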

Additional observations from a re-analysis of the deposited data

How the results depend on the processing

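Depth limits the rare classes, which rest on 58 and 8 reads, and their shares differed between movies. With the earlier movies only, and the later movie only, the level was 106.9 and 47.7 reads per 1000 alignments, 5' ends within 2 nt held 94.4% and 97.4%, leader reads 0.0142% and 0.416%, and extension reads 0.341% and 2.02%. The later movie alone gave 93.5% of 3' ends within 2 nt and 21.95 points for the -1 to +2 pairing. Its share of 3' ends within 2 nt (the 3' share) was 93.9% after a start within 2 nt of the annotated one and 88.6% after one inside. Leaving out 1 movie at a time gave ranges of 79.1 to 106.9 reads per 1000, 94.4% to 95.3% for 5' ends and 94.7% to 95.3% for 3' ends. With 1 movie left out the 3' share was 94.9% to 95.4% after starts within 2 nt of the annotated start. After starts inside it was 92.2% to 93.7%. Leader reads were then 0.0142% to 0.120%, extension reads 0.341% to 0.764% and the pairing 14.8 to 17.3 points. Counting identical alignments once, which by construction counts each pair of ends once, gave 22.7 reads per 1000. The 5' and 3' ends then held 43.0% and 53.2%. By that count the 3' share was 19.7% after starts within 2 nt of the annotated start and 80.4% after starts inside. Leader reads were 2.82%, extension reads 11.3% and the pairing 1.64 points. The exact base alone gave 71.3% (5') and 57.5% (3'), a tolerance of 1 nt 93.8% and 82.5%, and of 5 nt 96.4% and 97.4%. With the tolerance set to 1 nt at both ends, the 3' share was 82.6% after starts within it and 81.7% after starts inside. With 5 nt at both ends these were 97.6% and 95.5%. Leaving out reads that covered less of the gene than they missed gave 95.6% at the 5' end. SNR40 had the lowest share at the commonest 3' end among the box C/D genes with at least 200 reads, with identical alignments counted once and in the earlier movies, and the 2nd lowest of 17 in the later movie. Its rank by extension reads was 5 of 16, 2 of 16, 6 of 21 and 3 of 17 in the same order. The cause of these shifts was not tested. The pairing result, its alternatives and the ranks by movie were chosen after seeing the data. No paired analysis was possible because the replicates stand in 1 pool and no result comes from a test.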
